A study of Prunus armeniaca and Prunus mume with 8 samples.

Results

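Described here are 197 sequence tags of the apricot cDNA library made from green fruit, as measured in the fruit of Prunus mume (Japanese apricot, mei) and Prunus armeniaca (apricot). They are all probes, 197 of 10384 on the array, whose description in any of the authors' deposited comparison lists names the Green Apricot Fruit Lambda Zap II Library. Those lists hold only probes with a difference of at least 2-fold between cultivars or species, so the tags were chosen by their measured differences between these arrays. The differences are therefore given as a description. Where a tag is said to be called by the fit across all probes, that too describes arrays already used to choose it and is no independent test.

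Prunus mume was represented by the cultivars Ruantiaohongmei and Xiyeqing, and Prunus armeniaca by Manao and Zhenkui. Each cultivar has 2 one-colour arrays labelled with Cy3, 8 arrays in all, on 1 slide. Per the labels, the RNA came from fruit at stages 1 to 8, sampled between 3 and 13 weeks after full bloom and mixed, and an extract was used only if it passed a quality check. No transgene, treatment or mutation is named in the labels for any group. The labels name neither the stages behind each array nor separate trees for the arrays of 1 cultivar. A p-value here therefore measures only how far these arrays spread, and that spread may be technical. The stage mixture and the cultivar cannot be told apart, and neither can a change in RNA per cell and a change in the share of a cell type in the fruit. Ruantiaohongmei and Manao lay in row 1 of the slide and Xiyeqing and Zhenkui in row 2. A row therefore held 1 cultivar of each species, while the 2 cultivars of a species cannot be told apart from the rows.

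An expressed sequence tag is a single read from one end of a cloned cDNA, entered in a public database under its own accession, often before the gene behind it is known. A 5′ read starts at the end of the insert nearer the start of the transcript, and a 3′ read at the end nearer the poly(A) tail. Lambda ZAP II is a bacteriophage vector long used to build cDNA libraries. Stone fruits grow in a double sigmoid: a first rapid phase with much cell division, a slow phase in which the stone lignifies and hardens, and a second rapid phase of cell enlargement that leads into ripening. A cDNA library of green fruit samples the transcripts present before ripening. Its tags say where a transcript was cloned, not what it encodes, and none of the 197 descriptions names a protein, so each tag is identified below by its accession, its clone and its read end, with no gene name or role.

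The 197 tags have 197 accessions and come from 192 clones. Of these, 53 have accessions starting with CB, all 3′ reads, and 144 start with CV, of which 25 are 3′ reads and 119 are 5′ reads. Accessions starting with CB or CV are 2832 probes on the array, and the authors' lists describe 403 of them: 197 from the green library, 124 from the half-ripe and 82 from the ripe apricot library. No set of fruit-defining markers independent of the lists was at hand, so the tissue label was not checked. The sequences of the probes were not used here. The tags are apricot sequences. For them, a species difference in RNA level and one in match to the probe therefore cannot be told apart.

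Signals are given as log2 relative to the 75th percentile of each array, so 0 is that percentile and a step of 1 is 2-fold. Levels of different probes are not comparable, and only differences of 1 probe between arrays are read. Across the arrays, 7806 to 8982 probes were well above background by the scanner software's own mark, and the median ratio of signal to background was 6.35 to 8.15. The precision of every value is limited by the number of arrays, 2 per cultivar. All 197 tags passed the filter for testing (both arrays of some cultivar well above background), as did 9125 of all probes, and 179 tags were well above background on all 8 arrays. The other 18 were missing on P. mume arrays only in 14 cases and on P. armeniaca arrays only in 4. Ruantiaohongmei 2, the array with the fewest probes well above background, lacked 13 of the 18. No tag was saturated, and 1 value, that of CV047184.1 on Manao 1, was missing because its spot was marked an outlier.

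The library's listed tags, chosen by differences between these same arrays, had lower median signals in P. mume. The median tag stood at −1.16 and −1.30 on the Ruantiaohongmei arrays and at −0.93 and −1.11 on the Xiyeqing arrays, against −0.52 and −0.35 on the Manao arrays and −0.51 and −0.67 on the Zhenkui arrays. All 4 P. mume medians lay below all 4 P. armeniaca medians. The 2 arrays of a cultivar differed for the median tag by 0.43 in Ruantiaohongmei, 0.39 in Xiyeqing, 0.20 in Manao and 0.41 in Zhenkui, and by 1 or more for 24, 30, 7 and 26 tags in the same order. Xiyeqing, whose arrays differed by 1 or more for the most tags, also had the lowest correlation over tags between its arrays (r = 0.948), against r = 0.966 in Ruantiaohongmei, 0.988 in Manao and 0.971 in Zhenkui. These correlations are across tags and describe the arrays only.

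The authors' deposited species list, in which the ratio runs P. mume over P. armeniaca, held 111 of the 197 tags, 32 higher and 79 lower in P. mume, with folds of 2.01 to 72.4. The other 86 entered through cultivar lists. In the authors' deposited tables, 154 tags were listed between Ruantiaohongmei and Zhenkui, 142 between Xiyeqing and Zhenkui, 106 between Ruantiaohongmei and Manao, and 102 between Xiyeqing and Manao. Within a species, 11 were listed between Ruantiaohongmei and Xiyeqing and 15 between Manao and Zhenkui. One tag, CB819847.1, was listed within a species only. Most tags were in several lists: 43 were in 1, 37 in 2, 23 in 3, 23 in 4, 63 in 5 and 8 in 6 of the 7. The lists share arrays, so a tag in several is not several observations.

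Close to the bound, the largest fold in the authors' deposited tables was 2.0098 for CV045970.1 and 2.01011 for CV046688.1, both members. Outside it, the nearest entries of the same library, placed there by their accession numbers, had 1.99954 and 1.98994. CV045970.1 read −1.09 and −0.78 on Ruantiaohongmei and −0.66 and −1.24 on Xiyeqing, against −0.26 and −0.10 on Manao and −0.06 and 0.16 on Zhenkui. CV046688.1 read −0.92 and −1.31 on Ruantiaohongmei and −1.34 and −1.48 on Xiyeqing, against −1.88 and −1.57 on Manao and −2.67 and −2.06 on Zhenkui. In both tags the 4 P. mume arrays did not overlap the 4 P. armeniaca arrays, as held for 39.9% of all probes tested. Other tags near the bound did overlap, such as CV046872.1 and CV046109.1, with largest folds of 2.18 and 2.24. The difference was −0.88 for CV045970.1 and 0.78 for CV046688.1. The fold was not the lists' only condition: 101 unlisted entries of the library's accession runs also reached 2-fold in the authors' deposited log2 values, the largest 4.88-fold, and 18 of these 101 (17.8%) were well above background on all 8 arrays.

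Between the species, 44 tags were higher and 115 lower in P. mume in the fit across all probes (limma, adjusted p under 0.05). Over all 9125 probes tested the same rule called 36.7%, with 15.1% higher and 21.6% lower. The lists were drawn from these same arrays, so nothing is read from the tags' larger share. All 4 P. mume arrays lay above all 4 P. armeniaca arrays for 37 tags and below them for 113. Over all probes tested this held for 16.3% above and 23.7% below, or 39.9% in either direction. The median difference over the tags was −0.99 on the log2 scale, against −0.11 over all probes tested. Single tags ran from −7.23 to 5.20 as measured, and tags not above background in 1 group lie at both ends of that range. Differences of at least 2-fold were found for 38 tags on the higher side and 93 on the lower side in P. mume. Of all probes tested, 23.8% differed by that much in either direction.

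The lower side was the longer one in number and in reach. Below −4 lay 9 tags, 24 lay between −4 and −2, 60 between −2 and −1 and 43 between −1 and 0. Above 0, 23 tags lay between 0 and 1, 25 between 1 and 2, 9 between 2 and 4 and 4 above 4. Of the 9 tags below −4, 7 were 5′ reads, and of the 4 above 4, none was, where 119 of all 197 tags are 5′ reads. Some tags in both classes were not above background in 1 group, and no test of the read ends was made.

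**Figure D1:**
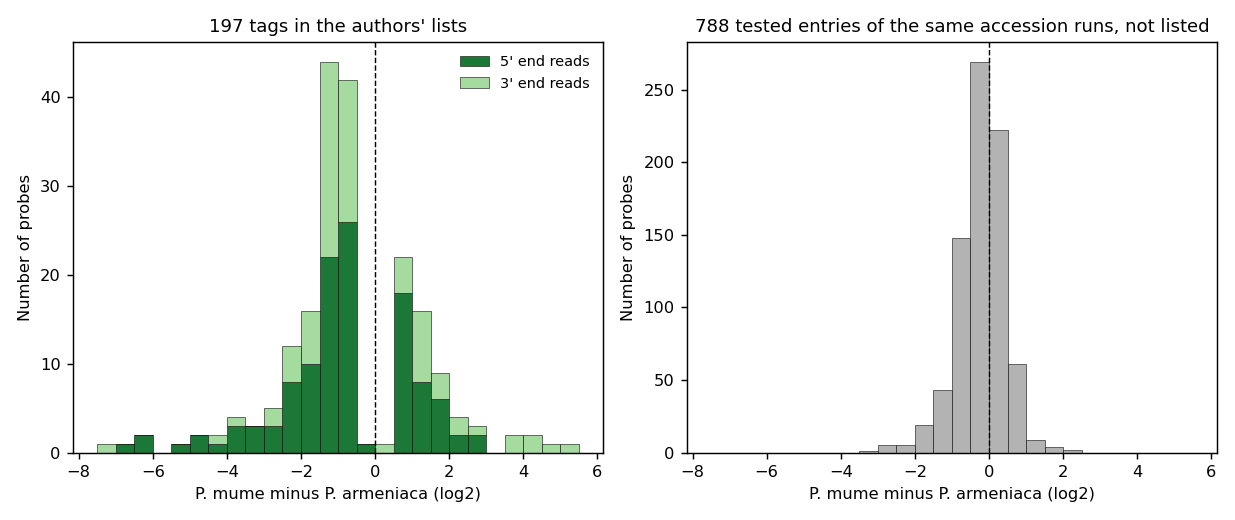
Number of probes (vertical axis) by the difference of P. mume minus P. armeniaca (horizontal axis, log2, bins of 0.5) for the 197 listed green library tags by read end (left) and for 788 tested but unlisted entries of the same accession runs (right). The vertical scales differ. Only 2 of the listed tags lie within 0.5 of 0, where most unlisted entries lie, and the taller side of the listed tags is below 0.

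The lowest tag in P. mume relative to P. armeniaca was CB819565.1, the 3′ read of clone ba003b20. It read −7.07 and −6.39 on Ruantiaohongmei and −2.23 and −2.90 on Xiyeqing, against 2.34 and 2.45 on Manao and 2.75 and 2.81 on Zhenkui. The P. armeniaca arrays were within 0.5 of each other, while the P. mume cultivars fell into separate levels, and on Ruantiaohongmei the tag was not well above background. The measured difference of the species means was −7.23, which rests in part on the dim Ruantiaohongmei values. In row 2, where all arrays had the tag well above background, it was 40.7-fold lower in Xiyeqing than in Zhenkui. In row 1 the dim side has only a bound, computed as given for the next tag. By that bound it was at least 179-fold lower in Ruantiaohongmei than in Manao. The bound holds only for the values as processed here. In the authors' deposited list for this pair, the largest fold of any of the tags was 149.6.

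CV047498.1, the 5′ read of clone bga011p23q, read −7.71 and −7.08 on Ruantiaohongmei and −8.07 and −7.92 on Xiyeqing, against −0.73 and −0.87 on Manao and −0.84 and −1.33 on Zhenkui. On none of the P. mume arrays did it rise well above background. A bound was computed for such tags, as the mean of the brighter group over, per array, the dim tag's own value or the faintest signal that still counted as well above background, whichever was higher. Such a bound holds only for the values as processed here and is no minimum under another background treatment. By that bound CV047498.1 was at least 21.9-fold lower in P. mume, with a measured difference of −6.75. With normexp background correction and quantile normalization the difference was −2.44.

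CV046060.1, a 5′ read, read −4.83 and −6.57 on Ruantiaohongmei and −8.07 and −7.92 on Xiyeqing, against 0.16 and 0.19 on Manao and −0.42 and −1.68 on Zhenkui. Only 1 of the 4 P. mume arrays, Ruantiaohongmei 1, had it well above background. The species difference is therefore not given as a fold. By the bound, the tag was in row 2 at least 25.05-fold lower in Xiyeqing, where it was not above background, than in Zhenkui.

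CV047185.1, the 5′ read of clone bga011b16q, was well above background on every array and so gives a fold without a bound. It read −3.45 and −4.04 on Ruantiaohongmei and −4.42 and −3.41 on Xiyeqing, against 2.34 and 2.33 on Manao and 2.19 and 2.73 on Zhenkui. Both P. mume cultivars sat at 1 level, −3.83 ± 0.49, and both P. armeniaca cultivars at another, 2.40 ± 0.23. Each SD is over 4 arrays, 2 from each of 2 cultivars. The difference was −6.23, or 74.99-fold lower in P. mume.

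CV046885.1, the 5′ read of clone bga010d10q, was bright in P. armeniaca. It read −1.88 and 0.52 on Ruantiaohongmei and 0.51 and 0.75 on Xiyeqing, against 4.71 and 4.71 on Manao and 5.80 and 5.26 on Zhenkui. Ruantiaohongmei 1 stood more than 2 below the other P. mume arrays, which were close together. The difference was −5.14, or 35.4-fold lower in P. mume. The last of the 6, CV047398.1 (5′ read of bga011l06q), read −6.08 and −5.33 on Ruantiaohongmei and −7.96 and −6.31 on Xiyeqing, against −1.24 and −1.94 on Manao and −1.18 and −2.24 on Zhenkui. On no P. mume array was it well above background, and by the bound it was at least 13.4-fold lower in P. mume. Its difference was −3.18 with the authors' deposited log2 values and −1.70 with normexp background correction and quantile normalization.

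The 6 tags with the largest positive differences were all 3′ reads with CB accessions. CB819423.1, from clone ba002j07, read 1.00 and 0.73 on Ruantiaohongmei and −0.62 and 1.73 on Xiyeqing, against −4.52 and −3.40 on Manao and −4.09 and −4.97 on Zhenkui. All 8 values were well above background, and the lowest P. mume array stood above the highest P. armeniaca array by more than the range within either species. The difference was 4.96, or 31.1-fold higher in P. mume.

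CB820495.1, from clone ba006h23, had the most even level in P. armeniaca of the 6. It read 0.70 and 0.18 on Ruantiaohongmei and −0.07 and 0.68 on Xiyeqing, against −3.87 and −3.88 on Manao and −3.91 and −3.93 on Zhenkui. The difference was 4.27, or 19.3-fold higher in P. mume. CB819625.1, from clone ba003f04, had the same shape. It read 0.84 and 0.58 on Ruantiaohongmei and 0.21 and 1.20 on Xiyeqing, against −3.06 and −2.67 on Manao and −3.11 and −2.88 on Zhenkui, a difference of 3.63, or 12.4-fold higher in P. mume.

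The other 3 of these 6 were well above background on every P. mume array and on no P. armeniaca array. Their folds are therefore bounds, which hold only for the values as processed here. CB819907.1 (clone ba004f11) read −2.48 and −2.05 on Ruantiaohongmei and −4.38 and −0.69 on Xiyeqing, against −7.94 and −6.88 on Manao and −7.98 and −7.57 on Zhenkui. Its measured difference of 5.20 depends on how dim values are treated and was 1.496 with normexp background correction and quantile normalization. It was at least 8.94-fold higher in P. mume, and its 2 Xiyeqing arrays lay far apart. CB820607.1 (clone ba006p06) read −3.76 and −3.54 on Ruantiaohongmei and −3.99 and −2.41 on Xiyeqing, against −7.94 and −7.67 on Manao and −7.98 and −7.57 on Zhenkui. It was at least 4.39-fold higher in P. mume. CB820325.1 (clone ba005o03) lay between −3.71 and −2.43 on the P. mume arrays, against −7.98 to −6.12 on the P. armeniaca arrays, and was at least 5.43-fold higher in P. mume. With normexp background correction and quantile normalization the 12 differences kept their signs and were smaller, at −4.89 to −1.70 for the 6 lower and 0.88 to 3.26 for the 6 higher tags.

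**Figure D2:**
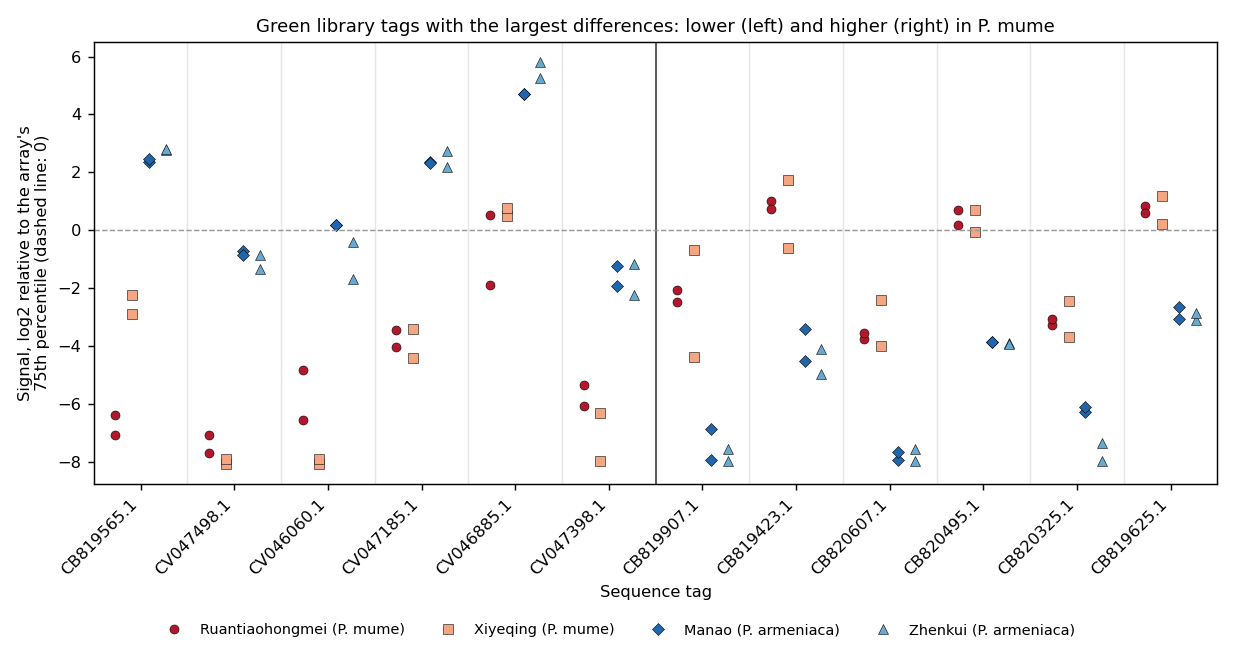
Signal (vertical axis, log2 relative to the 75th percentile of the array) of the 6 green library tags with the largest negative and the 6 with the largest positive species difference (horizontal axis), 1 point per array, with the P. mume cultivars left of the P. armeniaca cultivars within each tag. The species do not overlap for any of the 12, and CB819565.1 has a separate level in each P. mume cultivar.

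At the other end of the scale were tags with little or no difference between the species. CB819847.1 had the difference nearest 0, 0.09. It read −1.91 and −1.89 on Ruantiaohongmei and −1.02 and −0.31 on Xiyeqing, against −1.36 and −1.22 on Manao and −1.43 and −1.49 on Zhenkui. Its P. mume cultivars lay on either side of all the P. armeniaca values. CV046942.1 differed by −0.33, CV047479.1 by 0.56 and CV046109.1 by 0.60, and in each the arrays of the species overlapped. CV047479.1 had its widest gap between arrays of 1 cultivar in Xiyeqing, at 0.28 and 4.00, so its mean there rests on values far apart.

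Within each slide row the species could be compared between 1 cultivar of each. In row 1, 26 tags were higher and 87 lower in Ruantiaohongmei relative to Manao (limma, adjusted p under 0.05), where 21.6% of all probes tested were called, 8.7% higher and 12.9% lower. In row 2, 39 were higher and 99 lower in Xiyeqing relative to Zhenkui, where 27.8% of all probes tested were called, 12.6% higher and 15.3% lower. The median difference was −0.96 in row 1 and −1.06 in row 2. With 1 array of a pair left out, the lone array is assumed to vary as the other cultivars do, and fewer calls were made over all probes as well. In row 1 there were 44 calls without Manao 1 and 51 without Manao 2, where 6.203% and 7.78% of all probes tested were called. In row 2 there were 78 without Xiyeqing 2 and 87 without Zhenkui 1, where 14.2% and 14.0% were called.

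The 2 rows share no array. The sign was the same in both for 190 of 197 tags (96.4%), and for 79.6% of all probes tested. The sizes also tracked each other, with r = 0.903 across the tags and 0.847 across all probes tested. Tags are not independent replicates, and each was listed for a difference in at least 1 of these cultivars. Farthest from the diagonal, with more than 3 between the differences of the 2 rows, lay 3 tags that are described with the cultivars: CB819802.1 and CB819565.1, lower in Ruantiaohongmei than row 2 would give, and CV044876.1, higher in Ruantiaohongmei.

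**Figure D3:**
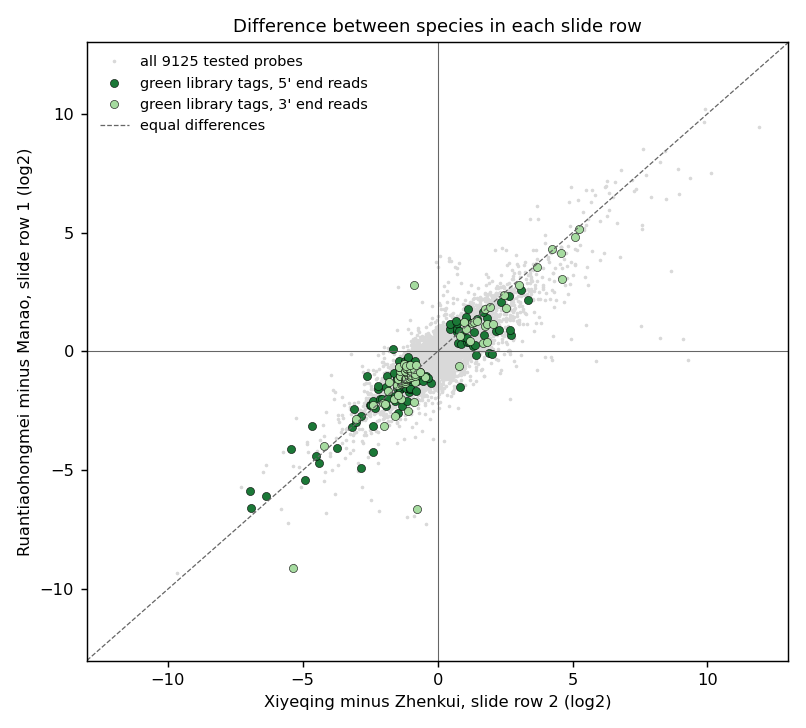
Difference between the species in slide row 1 (vertical axis, Ruantiaohongmei minus Manao, log2) against that in slide row 2 (horizontal axis, Xiyeqing minus Zhenkui, log2) for the 197 green library tags by read end, over all 9125 probes tested in grey. The dashed line marks equal differences. Of the tags, 190 have the same sign in both rows.

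Ruantiaohongmei and Xiyeqing differed in few of the tags. In the fit, 1 was higher and 5 were lower in Ruantiaohongmei, where 0.592% of all probes tested were called (0.0767% higher and 0.515% lower), and 22 tags had an unadjusted p under 0.05, as had 679 of all 9125 probes tested. By size, 5 tags were at least 2-fold higher and 13 at least 2-fold lower in Ruantiaohongmei, and 4.84% of all probes tested differed by that much. The 6 calls came to 2 without Xiyeqing 1, 3 without Xiyeqing 2, and 2 among the tags well above background on all 8 arrays.

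The tag that set Ruantiaohongmei apart most was CB819802.1, the 3′ read of clone ba003p18. It read −7.71 and −7.08 on Ruantiaohongmei, against −0.93 and −0.60 on Xiyeqing, and it read −0.67 and −0.82 on Manao and −0.20 and 0.17 on Zhenkui. The other 6 arrays were thus at 1 level, and on the Ruantiaohongmei arrays the tag was not well above background. The difference from Xiyeqing was −6.62, and by the bound Xiyeqing was at least 20.1-fold higher. With normexp and quantile normalization it was −2.44 and was still called. The P. mume mean of this tag therefore averages 2 unlike cultivars: its species difference was −3.70, with −6.64 for Ruantiaohongmei relative to Manao and −0.75 for Xiyeqing relative to Zhenkui.

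CB819565.1, described above, was lower in Ruantiaohongmei than in Xiyeqing by a measured −4.16. Xiyeqing was at least 5.76-fold higher by the bound. With another background correction (normexp) and quantile normalization, this difference was −1.08 and was no longer called. CV047455.1, the 5′ read of clone bga011n23q, was graded over 3 levels. It read −2.07 and −2.40 on Ruantiaohongmei, against −0.08 and −0.02 on Xiyeqing, with 2.61 and 2.67 on Manao and 2.86 and 2.72 on Zhenkui. Its difference of Ruantiaohongmei from Xiyeqing was −2.19. Without Xiyeqing 1 or without Xiyeqing 2 that difference was no longer called, at −2.22 and −2.16. The remaining tags called lower in Ruantiaohongmei were CV047264.1 with −2.13 and CV047100.1 with −2.09.

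CV044876.1, the 3′ read of clone bga009p22p, was the 1 tag called higher in Ruantiaohongmei. It read −1.53 and −0.88 on Ruantiaohongmei, against −4.27 and −3.88 on Xiyeqing, and −3.98 and −4.01 on Manao and −3.44 and −2.95 on Zhenkui. Ruantiaohongmei alone stood above the rest, by 2.87 or 7.30-fold relative to Xiyeqing (1.64 with normexp and quantile normalization). It was no longer called without Ruantiaohongmei 2, without Xiyeqing 1 or without Xiyeqing 2, where the difference was 2.55, 2.67 and 3.07. As measured, CV046060.1 (2.29) and CV047398.1 (1.43) were also higher in Ruantiaohongmei. Neither was called or well above background on both Ruantiaohongmei arrays. Among tags that were, and whose 2 Ruantiaohongmei arrays lay above both Xiyeqing arrays, 2 tags that were not called came next in size. CV046069.1 read −2.04 and −2.87 on Ruantiaohongmei against −4.02 and −4.04 on Xiyeqing, and CV045941.1 read −0.43 and −1.11 against −1.85 and −1.89. For CV046069.1 both P. mume cultivars lay below P. armeniaca, whose arrays read 0.48 to 0.82.

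Manao and Zhenkui differed in none of the tags by the fit: limma called 0 of 197, and 0.0% of all probes tested. An unadjusted p under 0.05 was found for 29 tags, and for 1022 of all probes tested. The count stayed at 0 with each array left out and under every other processing tried, the authors' deposited log2 values included. By size, 17 tags were at least 2-fold higher and 3 at least 2-fold lower in Manao, against 4.94% of all probes tested in either direction. CV045940.1, the 5′ read of bga007f02q, read 1.90 and 1.53 on Manao against −0.50 and −0.67 on Zhenkui, and 1.05 to 1.90 on the P. mume arrays. Zhenkui alone was low. CV047406.1 read 0.04 and −0.19 on Manao against −2.31 and −2.08 on Zhenkui, and lay at 0.19 to 1.09 on the P. mume arrays. CV046880.1 was 2.13 higher in Manao, with values of 0.50 and 1.20 against −1.24 and −1.34 on Zhenkui.

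In the opposite direction, CV046046.1, the 5′ read of bga007k08q, was bright everywhere. It read 4.80 and 4.64 on Manao against 5.74 and 6.28 on Zhenkui, and 3.64 to 4.40 on the P. mume arrays. CV047489.1 read 0.81 and 0.57 on Manao against 1.70 and 1.78 on Zhenkui, with the P. mume arrays at −0.93 to −0.07. In these 2 tags the order was the same, with Zhenkui highest, Manao next and both P. mume cultivars below. CV046335.1 read −3.06 and −3.42 on Manao against −1.67 and −2.79 on Zhenkui, and its P. mume arrays, at −4.16 to −2.87, overlapped those of Manao.

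**Figure D4:**
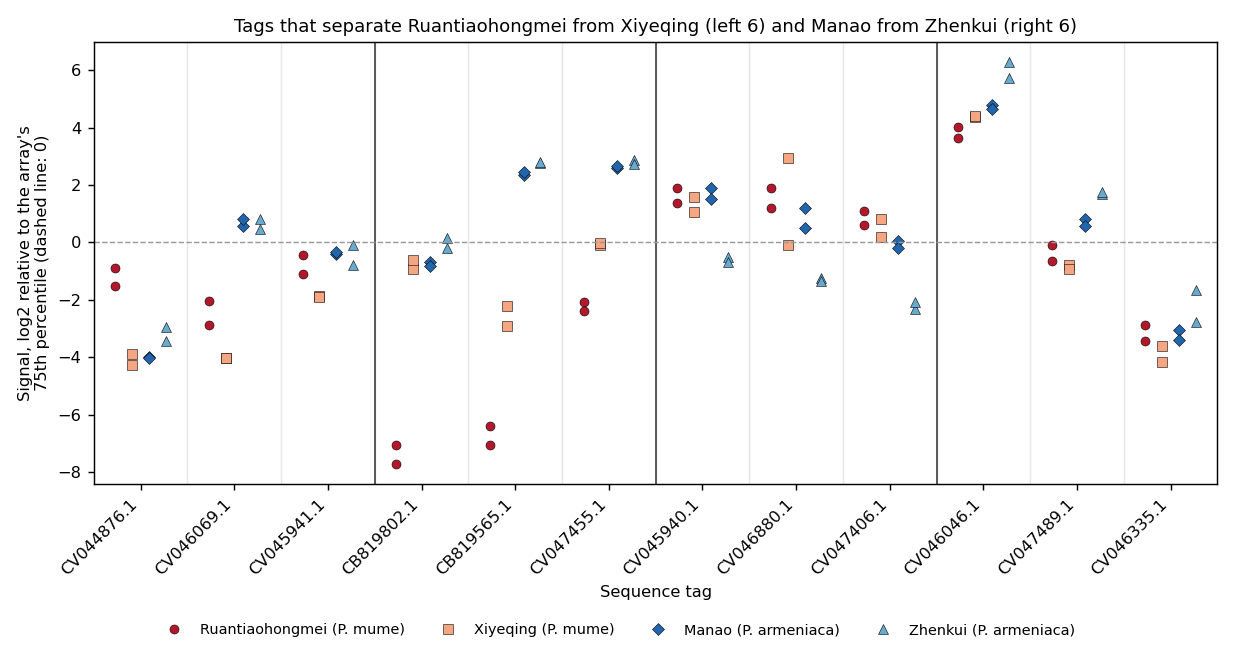
Signal (vertical axis, log2 relative to the 75th percentile of the array) of green library tags that separated the cultivars of a species (horizontal axis), 1 point per array. Ranked were only tags with both arrays of the brighter cultivar well above background and above both of the other. Left are the 3 highest and 3 lowest of these in Ruantiaohongmei relative to Xiyeqing, and right the 3 highest and 3 lowest in Manao relative to Zhenkui. P. mume is left of P. armeniaca within each tag. CB819802.1 is at −7.71 and −7.08 on the Ruantiaohongmei arrays and between −0.93 and 0.17 on the other 6.

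Asked of every tag, the cultivar that stood apart most often was Zhenkui, on the high side. Both Zhenkui arrays lay above the other 6 for 66 tags and below them for 23, and over all probes tested this held for 16.8% and 11.9%. Both Ruantiaohongmei arrays lay below the other 6 for 42 tags and above for 10, against 11.2% and 5.18% of all probes tested. Both Xiyeqing arrays were lowest for 10 and highest for 9 tags, against 3.43% and 4.31% of all probes tested. Both Manao arrays were lowest for 2 and highest for 15, against 4.93% and 6.68%. The lists from which the tags come hold more tags for Ruantiaohongmei against Zhenkui, 154, than for any other pair, and they are what chose the tags.

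For 5 clones both end reads were among the 197 tags. The ends of a clone are read by separate probes on 1 cDNA insert, so they share their source and are not separate genes. In all 5 the sign of the species difference was the same at both ends. Both ends had to be listed for differences between these same arrays, and clones with a single listed end are left out. Nothing is therefore read from this agreement. Clone bga011n23 had −3.86 at its 5′ end (CV047455.1) and −0.80 at its 3′ end (CV045417.1). The 5′ end separated Ruantiaohongmei from Xiyeqing, as given above, while the 3′ end read −3.65 and −3.77 on Ruantiaohongmei and −3.70 and −3.74 on Xiyeqing, against −3.23 and −3.03 on Manao and −2.66 and −2.75 on Zhenkui. At the 3′ end the species difference was much smaller, and the P. mume cultivars were not separated. Whether the 3′ probe could show a difference between them was not tested.

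Clone bga007j21 had −2.22 at its 5′ end (CV046037.1) and −1.15 at its 3′ end (CV044152.1), and clone bga010n22 had −1.27 (CV047106.1) and −0.81 (CV045142.1). At both ends of these clones the P. mume values lay below the P. armeniaca values, apart from CV045142.1, where the lowest P. armeniaca array, Manao 1 at −3.42, was below Xiyeqing 2 at −3.28. Clone bga011m22 was higher in P. mume at both ends, by 1.66 at the 5′ end (CV047433.1) and by 1.91 at the 3′ end (CV045400.1). Clone bga010c19 had −0.74 at the 5′ end (CV046872.1) and −1.07 at the 3′ end (CV044937.1). CV046872.1 was not called between the species, and its arrays overlapped. The difference was farther from 0 at the 5′ end in 3 of the 5 clones.

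**Figure D5:**
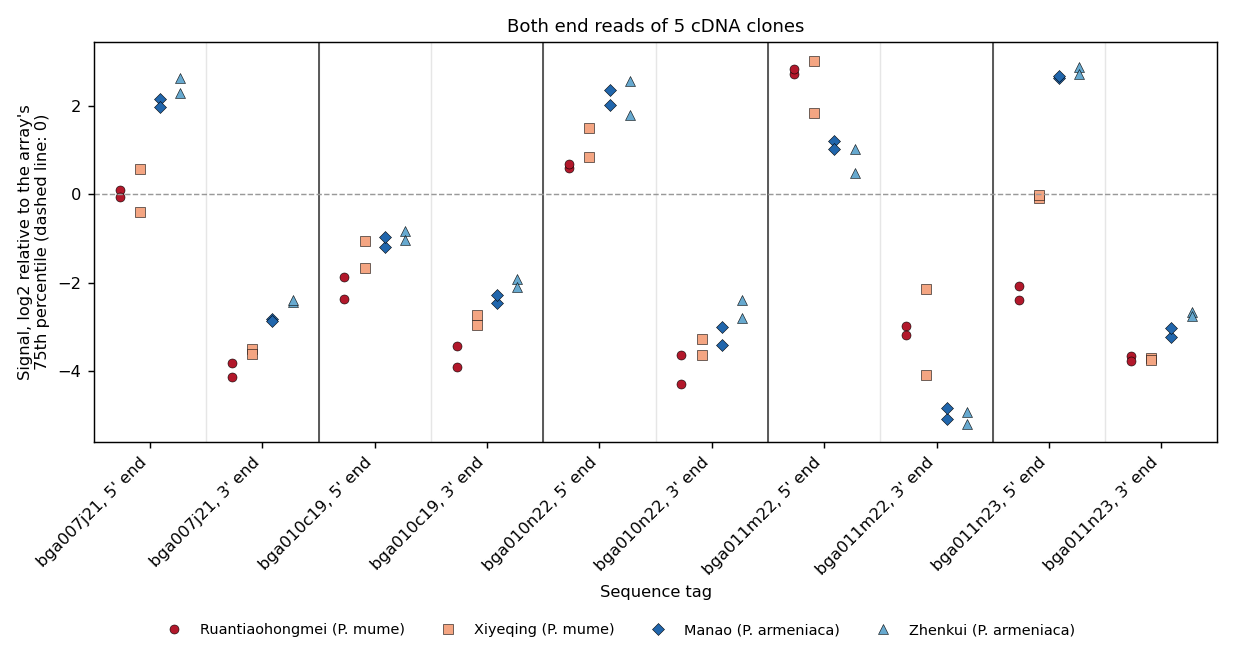
Signal (vertical axis, log2 relative to the 75th percentile of the array) at the 5′ and the 3′ end read of 5 green library clones (horizontal axis), 1 point per array, with P. mume left of P. armeniaca within each read. The mean species difference has the same direction at both reads of a clone, both of which had to be listed. Levels are not comparable between reads.

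By read end over all 197 tags, the 78 3′ reads had 20 called higher and 45 lower in P. mume with a median difference of −0.97. The 119 5′ reads had 24 higher and 70 lower with a median of −0.99. The highest 5′ read reached 2.83, and 7 of the 3′ reads were above that. The ends differed more in how often they had been listed at all, as the library's accession runs show.

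The accessions of the listed tags fall in 3 runs of numbers, with no listed tag of another library between them: CB818818 to CB820607 (3′ reads), CV044143 to CV045753 (3′ reads) and CV045758 to CV047498 (5′ reads). Probes with numbers inside these runs, 1176 in all, were taken as the green library's entries on the array. Their library is inferred from the numbering, since only listed probes are described, and the runs were drawn after the data were seen. The first and last number of each run is that of a listed tag, but the entries between them were taken without regard to signal or to the 2-fold bound. The listed tags were 197 of the 1176 (16.8%). They were 9.43% of the 562 entries of the CB run, 9.40% of the 266 of the CV 3′ run and 34.2% of the 348 of the 5′ run.

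Detection differed in the same way between the runs. Well above background on all 8 arrays were 87.1% of the 5′ run, 50.2% of the CB run and 46.2% of the CV 3′ run. Between the species, 35 entries of the 5′ run were called higher and 112 lower in P. mume among 332 tested, which is 44.3%. In the CB run 29 were higher and 104 lower among 449 (29.6%), and in the CV 3′ run 17 were higher and 50 lower among 204 (32.8%). What part detection had in the shares called was not tested. Lower calls outnumbered higher calls in each of the 3 runs.

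Over the whole green library, 985 of the 1176 entries were tested, and 81 were called higher and 266 lower in P. mume. That is 35.2% called, near the 36.7% of all probes tested. The split by direction was less even: 8.22% of the entries were higher, against 15.1% of all probes tested, and 27.0% were lower, against 21.6%. Of the calls, 76.7% were lower, and 58.8% were over all probes tested. This share lay between 72.9% and 79.9% under every other processing and with each array left out. The median difference was −0.21, against −0.11 over all probes tested, and −0.99 for the listed tags, which had to pass the 2-fold bound. Among the 788 tested entries outside the lists, 37 were called higher and 151 lower.

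Set beside the other fruit stages of the same apricot project, the green library leaned further to the lower side. The half-ripe runs had 78 entries called higher and 149 lower among 662 tested, so that 65.6% of calls were lower, and the ripe runs had 65 and 118 among 557, or 64.5%. The median difference was −0.16 in both. No test of these shares was made, since entries are not independent and some may belong to 1 gene. Among listed tags, the 124 half-ripe ones had 33 called higher and 67 lower with a median of −0.86, and the 82 ripe ones had 29 and 39 with a median of −0.64. The 232 tested probes whose description names a protein had 71 called higher and 82 lower, with a median of 0.46.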

How the data were processed

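Fruit RNA of 2 species was hybridised to 8 one-colour arrays, 2 for each of 4 cultivars, grouped by the labels' titles. The scanner files hold intensity values, background-subtracted and detrended by Agilent Feature Extraction, per the file headers (version 10.7.1.1, or 8.1, per the submitters' processing notes). For the log2 values that the authors deposited, the sources used here give no normalization or centring; their column medians were 6.71 to 6.81, and per array their correlation with the scanner values over probes was r = 0.987 to 0.991. The authors' deposited comparison lists give a ratio (fold) per probe, in which the bound of 2 was read from the values.

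Here, log2 of the processed signal minus each array's 75th percentile over non-control probes was used; control spots and spots marked outliers were left out, and spots of a probe were averaged. Probes that both arrays of some cultivar had well above background (9125 of 10384) were fitted in R 4.3.3 by limma 3.58.1, namely the species difference over the 8 arrays, cultivar being a random block (correlation 0.0781), and cultivar pairs as contrasts of 4 cultivar means. A call is a Benjamini-Hochberg adjusted p under 0.05 over all probes tested. The fits were checked on simulated data. The normexp alternative used the median signal, since the files given have no mean signal column.

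The tags, lists and rules were chosen with earlier results of these data known. Named in the text are the 6 tags with the largest and the 6 with the smallest species difference, the 3 at each end within each species, the 4 nearest 0, the 2 nearest the 2-fold bound and the clones read from both ends; CV047264.1, CV047100.1 and CV047184.1 were named after their values were seen. Alternatives were the normalization, the background correction, the authors' log2 values, the filter on dim probes, the fit's options and blocks, and each array left out.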

Additional observations from a re-analysis of the deposited data

Results flagged for a closer look

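The difference between the species was not the same in the 2 slide rows for 3 green library tags, in which the fit called the difference between the rows (limma), as it did for 0.197% of all probes tested. The tags were chosen by folds between these same arrays, so this describes them and is no independent test. The measured difference, Ruantiaohongmei over Manao minus Xiyeqing over Zhenkui, was −5.90 for CB819802.1, −3.77 for CB819565.1 and 3.67 for CV044876.1. The first 2 were not well above background on Ruantiaohongmei, so their measured sizes depend on dim values. Cultivar pair and slide row cannot be told apart here.

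One array stood apart from its species by Dixon's criterion among 76 groups of 4 arrays examined, where chance alone marks about 1 in 20: CV046885.1 read −1.88 on Ruantiaohongmei 1, with the other P. mume arrays between 0.51 and 0.75 (gap over range 0.907).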

How the results depend on the processing

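The median species difference of the listed tags, −0.99, stayed below 0 throughout, between −1.06 and −0.90 with 1 array left out, and was −0.74 with normexp background correction and quantile normalization. With 1 array left out, the calls lay between 140 and 174 for the species, 44 and 121 in row 1 (Ruantiaohongmei over Manao), 78 and 145 in row 2 (Xiyeqing over Zhenkui), 2 and 4 for Ruantiaohongmei over Xiyeqing, 0 and 0 for Manao over Zhenkui, and 272 and 420 for the entries of the green accession runs between the species, an alternative set chosen after seeing the data. Ruantiaohongmei over Xiyeqing had 2 calls among probes well above background on all 8 arrays, where 0.121% of all probes tested were called. That setting tests fewer tags (179).

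Array numbers are shared between cultivars. The deviations of same-numbered arrays correlated at −0.18 (Xiyeqing with Zhenkui) to 0.39 (Manao with Zhenkui). With 2 arrays per cultivar, these values cannot show whether same-numbered arrays share more than a number. With the replicate number as a block, 154 tags were called between the species (38 higher, 116 lower in P. mume), against 33.9% of all probes tested. Of these, 152 are among the 159 called without it. In row 1, 122 tags were called and in row 2, 142, against 21.9% and 27.2% of all probes tested. Ruantiaohongmei over Xiyeqing had 4 (0.515% of all probes tested) and Manao over Zhenkui 0 (0%). In the runs 319 entries were called between the species, beside the same 33.9% of all probes tested.

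Over the named tags, 39 results gave 669 combinations of a result and a setting. Direction and call were kept in 634, and the call was lost in 21 (5 results). The call was gained in 10 (2 results), and the sign changed in 4 (3 results). The sign changes were in 3 tags near 0 that were not called. With 1 array left out, CB819847.1 lay between −0.21 (without Xiyeqing 2) and 0.25, CV046942.1 between −0.75 and 0.16 (without Ruantiaohongmei 2; 0.11 without Manao 2), and CV047479.1 between −0.055 (without Xiyeqing 2) and 1.32. Sizes of dim tags moved most under normexp: CB820607.1 had 0.88 there against 4.37, and CV047498.1 had −2.44 against −6.75. Signal over background limits such tags, and 2 arrays per cultivar limit every value.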
